A study of Mus musculus with 12 samples.

Results

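The nuclear genes that encode subunits of the 5 complexes of oxidative phosphorylation were followed through mouse primordial germ cells (PGCs), which give rise to oocytes and sperm, and primordial germ cell-like cells (PGCLCs), their counterparts induced from embryonic stem cells. Members were taken by symbol (numbered Ndufa, Ndufb, Ndufc, Ndufs and Ndufv genes, Sdha to Sdhd, Uqcr genes, the lettered Cox4 to Cox8 genes and Atp5 genes) from probe sets that name 1 gene, each gene standing on its brightest probe set. The rule found 79 members among 18195 genes: 35 of complex I, 4 of complex II, 8 of complex III, 15 of complex IV and 17 of complex V. Of these, 76 were among the 13436 genes bright enough to be tested. Ndufb4, Cox6a2 and Cox8b were not, because fewer than 2 arrays exceeded 4.81, the median of all values. None of the mitochondrially encoded subunits was named on the probe sets used here.

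The 12 Affymetrix arrays fell into 6 groups of 2. PGCLCs were of C57BL/6 background and carried the BVSC reporters (Blimp1-mVenus and stella-ECFP). They were female cells at day 3 (d3), female cells at day 6 (d6 female), male cells at day 6 (d6 male), and female day 3 cells followed by 6 days of aggregation (d3ag6), which in this system is done with gonadal somatic cells of female embryos. PGCs came from matings of stella-EGFP males (C57BL/6) with wild-type BDF1 females and were either female, at embryonic day 12.5 (E12.5), or of unknown sex, at embryonic day 9.5 (E9.5). All cells were sorted on reporter fluorescence, and the cDNA of each array was amplified by PCR from 5 ng of RNA, the amount of 500 cells. The 6 PGC markers on the array, among them Prdm1, Dppa3 and Tfap2c, were above 4.81 on both arrays of every group, with a log2 summed signal of 13.94 to 14.60. Values below are log2 signal after quantile normalization, a group value is the mean ± SD (n = 2), and a change is a difference of log2 means from limma with its standard error (SE), called at an adjusted p under 0.05 over all genes tested. The p-values rest on the spread between arrays that are labelled as biological replicates, and 2 arrays a group limit the precision. In bulk RNA, fewer cells of a type and less RNA per cell cannot be told apart.

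Oxidative phosphorylation makes most of the ATP of a respiring cell. Complex I (NADH dehydrogenase) and complex II (succinate dehydrogenase, also an enzyme of the citric acid cycle) pass electrons to ubiquinone, complex III passes them to cytochrome c, and complex IV (cytochrome c oxidase) passes them to oxygen; complexes I, III and IV pump protons, and complex V (ATP synthase) uses their return to make ATP. Most subunits are single-copy housekeeping genes, but complex IV has subunits with paralogs that are used mainly in heart and skeletal muscle (Cox6a2, Cox7a1, Cox8b) or testis (Cox6b2, Cox7b2, Cox8c). PGCs are known to use both respiration and glycolysis, with the balance shifting as they develop.

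The promoters of 3 varying complex IV isoform genes and of the widely expressed partners of 2 of them are shown because these isoforms carry the changes described below. Each line gives the 250 bases before the annotated start in the gene's own direction, 5′ to 3′, from RefSeq on GRCm38.p6, with every CpG in capitals. The intervals are chr7:30183921-30184170 (plus strand) for Cox7a1, chr9:79759854-79760103 (minus) for its partner Cox7a2, chr7:4753095-4753344 (minus) for Cox6b2, chr7:30626115-30626364 (minus) for its partner Cox6b1, and chr5:71548206-71548455 (minus) for Cox7b2.
Cox7a1: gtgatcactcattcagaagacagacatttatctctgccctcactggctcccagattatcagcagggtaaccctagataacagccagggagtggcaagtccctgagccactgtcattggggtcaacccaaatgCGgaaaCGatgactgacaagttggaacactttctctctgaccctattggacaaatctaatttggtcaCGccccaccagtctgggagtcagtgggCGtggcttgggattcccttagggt
Cox7a2: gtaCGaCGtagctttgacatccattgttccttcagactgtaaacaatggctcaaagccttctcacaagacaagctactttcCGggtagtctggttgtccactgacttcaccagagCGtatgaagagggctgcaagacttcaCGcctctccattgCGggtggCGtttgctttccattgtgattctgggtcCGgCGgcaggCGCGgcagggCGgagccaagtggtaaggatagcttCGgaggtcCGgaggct
Cox6b2: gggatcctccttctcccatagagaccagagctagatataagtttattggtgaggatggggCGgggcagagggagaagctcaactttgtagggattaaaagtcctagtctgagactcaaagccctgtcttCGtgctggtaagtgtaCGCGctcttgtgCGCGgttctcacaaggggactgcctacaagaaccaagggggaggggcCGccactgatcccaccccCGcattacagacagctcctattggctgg
Cox6b1: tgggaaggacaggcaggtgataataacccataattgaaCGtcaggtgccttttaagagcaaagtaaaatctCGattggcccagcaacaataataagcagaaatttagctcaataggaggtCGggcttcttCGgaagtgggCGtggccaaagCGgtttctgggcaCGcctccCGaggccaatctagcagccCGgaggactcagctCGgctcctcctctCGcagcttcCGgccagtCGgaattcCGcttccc
Cox7b2: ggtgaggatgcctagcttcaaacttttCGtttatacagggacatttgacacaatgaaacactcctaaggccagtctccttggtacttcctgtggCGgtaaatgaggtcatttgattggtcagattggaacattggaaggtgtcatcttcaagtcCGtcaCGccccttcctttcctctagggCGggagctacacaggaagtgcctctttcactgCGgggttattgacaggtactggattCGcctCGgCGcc
The Cox7a1 stretch held 4 CpGs and the Cox7a2 stretch 14. The Cox6b2 stretch held 8 and the Cox6b1 stretch 14, and the Cox7b2 stretch held 9. RefSeq promoters, running from 250 bases before to 50 after the start, were matched for 66 members, and the median CpG count of a 300-base window was 19 in members and 7 over 27025 genes. Motifs were searched on both strands, and none of the 4 contains another. The NRF1 core CGCATGCG stood in 12.1% of the members' promoters (8 of 66, among them Uqcr11 and Cox6a1) and in 2.07% of all promoters. The YY1 motif AAGATGGCG stood in 9.09% of the members' (6, among them Ndufs7 and Atp5j) and 1.64% of all, the ETS-type GABPA core CCGGAAGT in 7.58% (5, among them Cox8a and Uqcrh) and 4.31%, and the ESRRA motif TCAAGGTCA in 3.03% (Atp5g3 and Sdhd) and 0.466%. None of these 4 motifs is in the 5 printed stretches. These shares describe letters in a window and were not tested.

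The arrays carried a code in their labels, and 1 code stood apart for these genes. EA1013 marked the 8 arrays of the 3 female PGCLC groups and of E12.5, while replicate 1 of E9.5 and of d6 male carried EA0831, and replicate 2 of both carried EA0842. The median over members of the difference between the arrays of a group, EA0842 minus EA0831, was -0.45 in E9.5 and -0.71 in d6 male, whereas the median replicate difference in the other groups lay between -0.08 and 0.03. Over all genes tested these differences were -0.03 in E9.5 and 0 in d6 male. Quantile normalization gives every array the same distribution of values, so a median near 0 over all genes was largely set in advance. In both groups 30 of 76 members (39.5%) were lower by more than 0.5 on the EA0842 array, compared with 9.52% of all genes tested.
The complexes did not share this shift alike. Its median in E9.5 and d6 male was -0.51 and -0.81 for complex I, -0.34 and -0.50 for complex III, -0.45 and -0.79 for complex IV, and -0.40 and -0.58 for complex V, but 0.24 and 0.46 for complex II. Ndufb1, a small accessory subunit of complex I, read 10.91 and 9.19 in E9.5 and 10.80 and 8.31 in d6 male on the EA0831 and EA0842 arrays. Uqcr11, a small subunit of complex III, read 12.17 and 10.87, then 12.22 and 10.38. Other subunits read higher on EA0842: Sdha, the flavoprotein of complex II, was at 11.58 and 11.98 in E9.5 and at 11.23 and 11.93 in d6 male, and Atp5b, the catalytic beta subunit of complex V, was at 13.06 and 13.33, then 13.03 and 13.45. In all, 17 of 76 members (22.4%) were higher on EA0842 in both groups, against 34.9% of all genes tested. Across the 76 members the differences in the 2 groups correlated at r = 0.89, and across all genes tested at r = 0.55, a description over genes that share the arrays. Results of the fit are therefore given also without the 2 EA0842 arrays, a setting chosen after seeing the data, in which E9.5 and d6 male have 1 array each that is assumed to vary like the other groups. The cause of the shift was not tested.

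**Figure D1:**
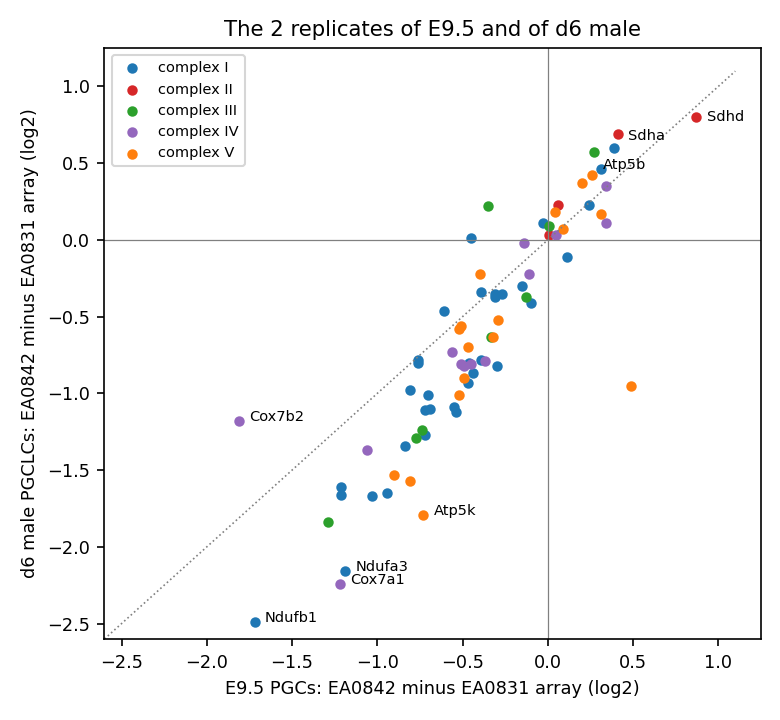
Difference between the 2 replicate arrays (EA0842 minus EA0831, log2) in E9.5 PGCs on the x axis and in d6 male PGCLCs on the y axis, 1 point for each of the 76 tested members, coloured by complex, with the line of equal differences dotted. Most members lie below 0 on both axes, down to Ndufb1 at -1.72 and -2.49, while Sdhd (0.87 and 0.80) and Sdha (0.41 and 0.69) lie above 0.

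**Figure D2:**
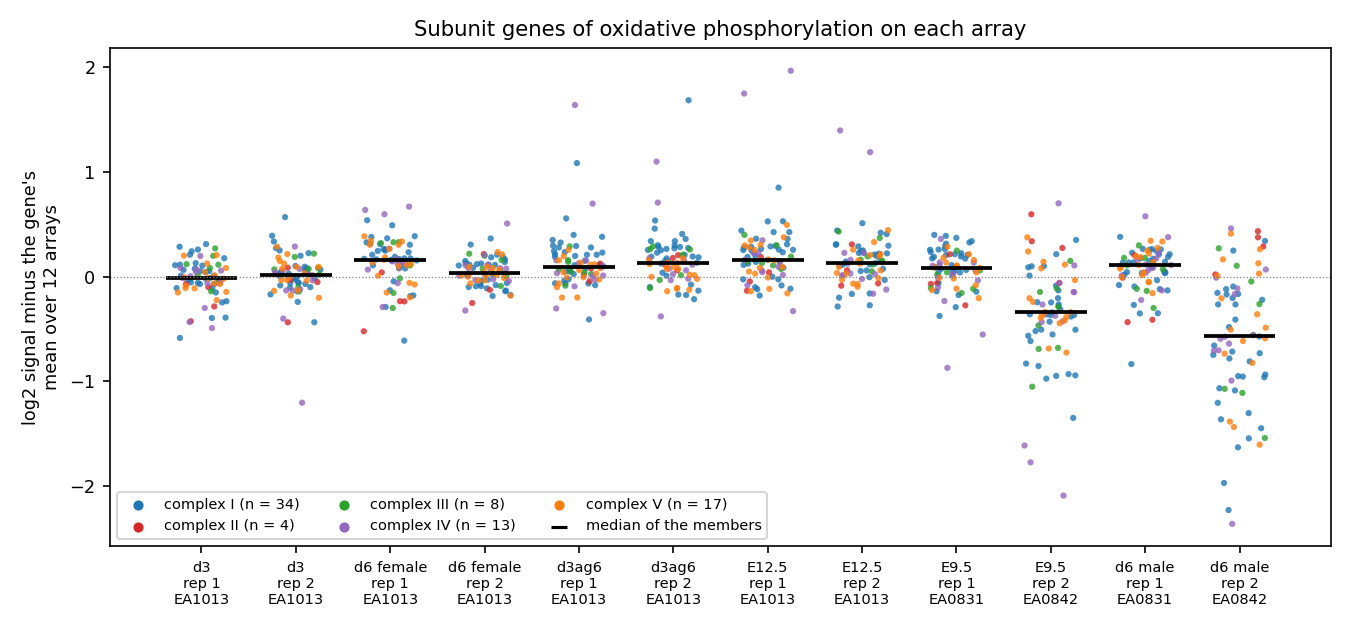
Log2 signal of each of the 76 tested members minus that gene's mean over the 12 arrays, by array, with the label's array code under each and the members' median as a bar; points are spread sideways at random. The 10 arrays of codes EA1013 and EA0831 lie close to each other, and the 2 EA0842 arrays lie lower and are more widely spread.

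Across the 4 groups that share code EA1013, most subunit genes held nearly the same level. The gap between a member's highest and lowest group mean had a median of 0.24 log2 units, and it was below 0.5 in 67 of 76 members (88.2%) and above 1 in 3. Over all genes tested the median gap was 0.62, with 37.9% below 0.5. Since bright probe sets vary less, genes outside the list with a mean of at least 11 are a closer comparison. Their median gap was 0.38 (67.3% of 1200 below 0.5), against 0.22 for the 63 members that bright (93.7% below 0.5). Brightness was still not matched: the median of the mean levels was 12.16 in these 63 members and 11.62 in the other genes. How much of the difference in gap goes with brightness was not tested. By complex the median gap was 0.30 for complex I, 0.37 for complex II, 0.19 for complex III, 0.23 for complex IV and 0.20 for complex V. These are descriptions, with no test of the list. Ndufa4, named as a complex I subunit but later assigned to complex IV, was the most even member, at 12.11 and 12.16 in d3, 12.21 and 12.07 in d6 female, 12.12 and 12.25 in d3ag6, and 12.17 and 12.17 in E12.5. Cox5a, a matrix-side subunit of complex IV, kept group means within 0.10, and Atp5g3, 1 of 3 genes for the same c subunit of complex V, within 0.09. The other c subunit genes, Atp5g1 and Atp5g2, spanned 0.41 and 0.19.

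The F test for any difference among these 4 groups called 1 member, Ndufa4l2 (adjusted p = 0.00914), where it called 24.4% of all genes tested; 4 members had an unadjusted p under 0.05. Without the EA0842 arrays, whose spread widens the error of these 4 groups too, it called 4 members against 29.6% of all genes: Cox7a1 (adjusted p = 0.0105), Cox6b2 (adjusted p = 0.0116), Cox7b2 (adjusted p = 0.016) and Ndufa4l2 (adjusted p = 0.0243). With the array code as a block it called 9 members. The share of all genes called is not given for that setting, so this count cannot be read as particular to the members. With d3ag6 replicate 2 left out, the F test called no member.

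**Figure D3:**
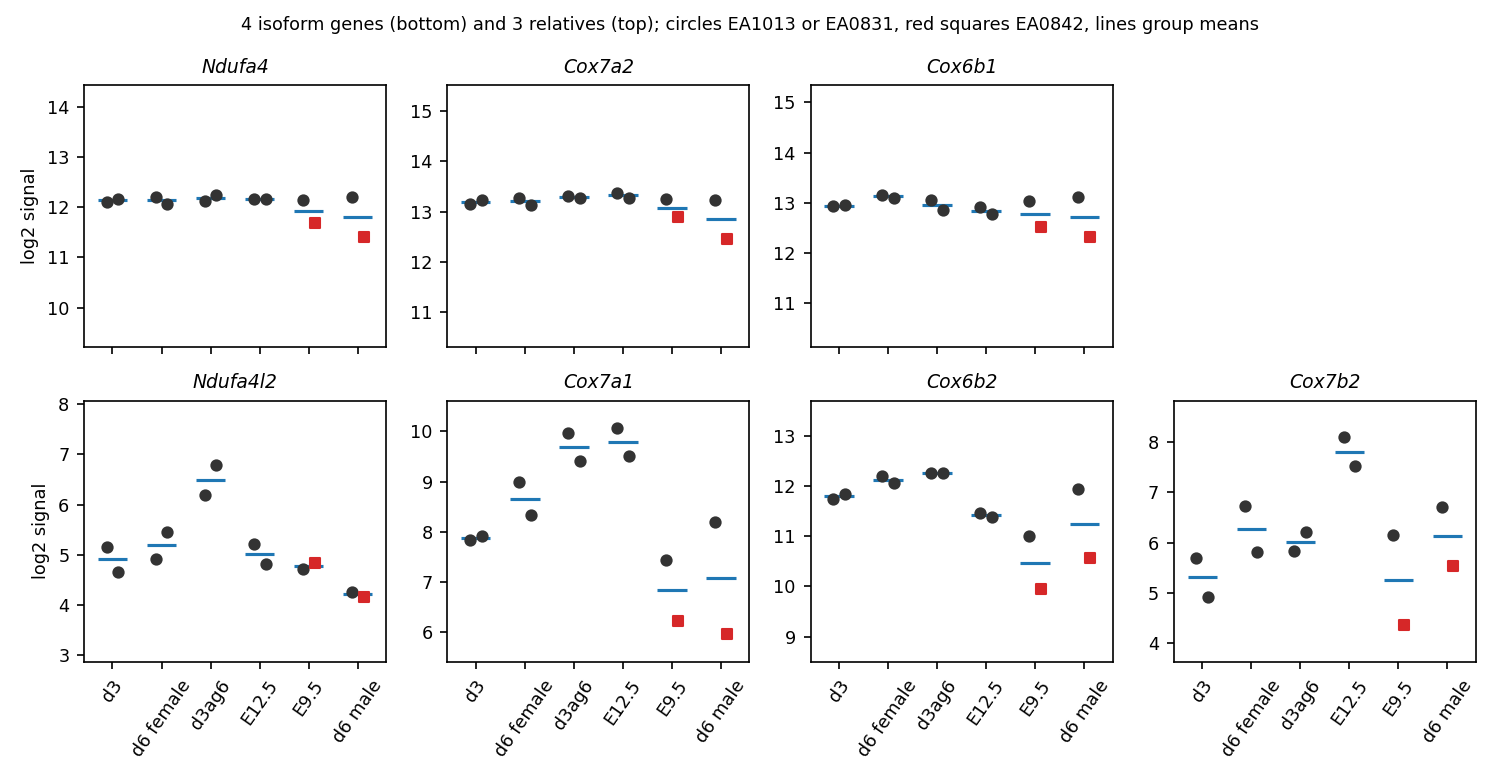
Log2 signal on each array (points; red squares are the EA0842 arrays) and group means (lines) of 4 isoform genes, Ndufa4l2, Cox7a1, Cox6b2 and Cox7b2, in the bottom row and of Ndufa4, Cox7a2 and Cox6b1 above the first 3; every panel spans the same number of log2 units. Ndufa4l2 stands highest in d3ag6 (6.18 and 6.78), Cox7a1 in d3ag6 and E12.5, and Cox7b2 in E12.5 (8.10 and 7.53), while the upper panels are nearly level outside the EA0842 arrays.

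Ndufa4l2, a paralog of Ndufa4 that is known as a hypoxia-induced gene, rose in d3ag6 against each of the 3 other groups of code EA1013. It read 5.16 and 4.66 in d3, 4.91 and 5.46 in d6 female, 6.18 and 6.78 in d3ag6, 5.22 and 4.81 in E12.5, 4.72 and 4.83 in E9.5, and 4.26 and 4.16 in d6 male. Both d3ag6 arrays lay above the other 10, whose values sat near the median of all probe sets, so the size of the change is imprecise. The change was 1.58 (SE 0.28, adjusted p = 0.0083) against d3, 1.30 (SE 0.28, adjusted p = 0.0296) against d6 female and 1.47 (SE 0.28, adjusted p = 0.0132) against E12.5. Without the EA0842 arrays the adjusted p were 0.0202, 0.0487 and 0.0291. Each of the 3 calls was lost without d3ag6 replicate 2, and the 1 against d3 also without d3 replicate 2 (highest adjusted p = 0.0644), the 1 against d6 female also without d6 female replicate 1 (highest 0.201), and the 1 against E12.5 also without E12.5 replicate 2 (highest 0.108). Its paralog Ndufa4 differed by 0.05 (SE 0.26, 95% interval -0.53 to 0.63), 0.04 and 0.01 in these comparisons.
Markers of other cells moved with this group. The 12 blood and macrophage markers had a log2 summed signal of 10.85 to 11.17 in d3ag6 and 8.53 to 9.56 in the other groups, with 8 of 12 above 4.81 on both arrays in d3ag6 and 3 or 4 elsewhere, and none at 0. The 12 markers of gonadal somatic cells summed to 9.94 to 10.10 in d3ag6, to 9.25 to 10.22 in E9.5 and to 9.02 to 9.63 in the other groups, with 8 above 4.81 on both d3ag6 arrays and none at 0. Their part in the Ndufa4l2 result was not tested.

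Cox7a1, the heart and muscle-type isoform of the complex IV subunit 7a, was highest in d3ag6 and E12.5. It read 7.83 and 7.92 in d3, 8.99 and 8.33 in d6 female, 9.96 and 9.42 in d3ag6, 10.07 and 9.51 in E12.5, 7.45 and 6.23 in E9.5, and 8.19 and 5.96 in d6 male. The d3ag6 and E12.5 arrays, which overlap each other, lay above the other 8. Cox7a1 rose from E9.5 to E12.5, from 6.84 ± 0.86 to 9.79 ± 0.40 (change 2.95, SE 0.66, adjusted p = 0.0126), and by 2.34 (SE 0.37, adjusted p = 0.00802) without the EA0842 arrays. The call was lost without E12.5 replicate 1 or E9.5 replicate 2, with adjusted p up to 0.0858. From d3 to d3ag6 the difference was 1.81, which was not called over all arrays (SE 0.66, adjusted p = 0.129) and was called without the EA0842 arrays (SE 0.30, adjusted p = 0.012) or with the replicate number as a block (adjusted p = 0.0443). The liver-type partner Cox7a2 read 13.16 and 13.23 in d3, 13.31 and 13.27 in d3ag6, and 13.38 and 13.28 in E12.5, with a difference of 0.09 (SE 0.25, 95% interval -0.47 to 0.65) from d3 to d3ag6 and 0.26 (SE 0.25, 95% interval -0.30 to 0.81) from E9.5 to E12.5. Cox7a2l, the related factor that helps to join complexes III and IV, spanned 0.11 over the 4 EA1013 groups.

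Cox7b2, a testis-type paralog of the complex IV subunit 7b, was highest in PGCs of the E12.5 gonad. It read 8.10 and 7.53 there, against 5.70 and 4.93 in d3, 6.73 and 5.81 in d6 female, 5.83 and 6.21 in d3ag6, 6.16 and 4.36 in E9.5, and 6.71 and 5.54 in d6 male. Both E12.5 arrays lay above the other 10, which overlap among themselves. It rose from E9.5 to E12.5 by 2.55 (SE 0.62, adjusted p = 0.0174). Without the EA0842 arrays the difference was 1.65 (SE 0.48, adjusted p = 0.0509), no longer called, and leaving out E12.5 replicate 1, E12.5 replicate 2 or E9.5 replicate 2 also ended the call, with adjusted p up to 0.109. Between d3ag6 and E12.5 the difference was -1.79 (SE 0.62, adjusted p = 0.115), which was called without the EA0842 arrays (adjusted p = 0.0341), with a block for array code (adjusted p = 0.0215) or replicate number (adjusted p = 0.0378), or on the arrays compared alone (adjusted p = 0.0238). The arrays of d3ag6 and E12.5 overlap in Cox7a1 and do not overlap in Cox7b2. Members with small differences in this comparison also do not overlap, among them Atp5g3 (-0.03) and Uqcr10 (0.04).

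Cox6b2, the testis-type isoform of the complex IV subunit 6b, had its lowest group mean in E9.5 PGCs (10.47 ± 0.75). It read 11.75 and 11.84 in d3, 12.19 and 12.06 in d6 female, 12.25 and 12.26 in d3ag6, 11.47 and 11.39 in E12.5, 11 and 9.94 in E9.5, and 11.93 and 10.56 in d6 male. It was higher in d6 female than in E9.5 by 1.65 (SE 0.43, adjusted p = 0.0348), and by 1.13 (SE 0.15, adjusted p = 0.00808) without the EA0842 arrays. The first of these calls was lost without either d6 female array or without E9.5 replicate 2, with adjusted p up to 0.163. Between d6 male and E9.5, where each code holds 1 array of both groups, Cox6b2 was higher in d6 male by 0.93 within EA0831 and by 0.62 within EA0842; the difference of 0.78 was not called in the 12-array fit (SE 0.43, adjusted p = 0.341) and was called with the code as a block (SE 0.13, adjusted p = 0.00697). It was also higher in d3ag6 than in E12.5 by 0.82. This difference was not called in the 12-array fit without a block (SE 0.43, adjusted p = 0.30). It was called without the EA0842 arrays (SE 0.13, adjusted p = 0.0113), with the code as a block (adjusted p = 0.00692) and on only the arrays compared (adjusted p = 0.0249). The widely expressed partner Cox6b1 differed by 0.35 (SE 0.26, 95% interval -0.25 to 0.95) between d6 female and E9.5 and by 0.11 (SE 0.26, 95% interval -0.49 to 0.71) between d3ag6 and E12.5.

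The other isoform families gave no call. Cox8c, the testis-type isoform of subunit 8, read 7.81 and 7.69 in E12.5 and between 7.23 and 7.62 on the other arrays, and its liver-type partner Cox8a read 11.92 to 12.72. The muscle-type Cox8b (0 to 3.44) and Cox6a2 (2.28 to 4.38) stayed below 4.81 on every array on the probe sets used; a second Cox6a2 probe set read 1.54 to 4.88, above 4.81 on d6 female replicate 1 alone. In contrast, the liver-type Cox6a1 read 13.00 to 13.30. Cox4i1 and Cox4i2, the isoforms of the subunit 4 whose symbols lie outside the rule, read 13.05 to 13.23 and 6.23 to 6.80, and neither was called. Cox7c, singled out after its values were seen, stood on a probe set of 7.30 to 8.38. Its difference between E12.5 and E9.5 was -0.68 (SE 0.22, adjusted p = 0.0527). That difference was called in some other settings, among them the replicate block (adjusted p = 0.0167) and the values as deposited (-0.83, adjusted p = 0.0279). Without the EA0842 arrays, where E9.5 has 1 array, it was -0.51 and was not called.

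Complex II, the smallest complex and the 1 that is encoded wholly in the nucleus, is given in full. Sdha, the flavoprotein subunit that oxidises succinate, read 11.57 and 11.59 in d3, 11.12 and 11.39 in d6 female, 11.72 and 11.82 in d3ag6, and 11.83 and 11.95 in E12.5, and it was not called. Sdhb, the iron-sulfur subunit, stayed between 11.79 and 11.95 on all 12 arrays. Sdhc, a membrane anchor that holds the haem with Sdhd, read 10.31 and 10.30 in d3, 10.50 and 10.61 in d6 female, 10.86 and 10.85 in d3ag6, 10.69 and 10.65 in E12.5, 10.95 and 11.01 in E9.5, and 10.94 and 11.17 in d6 male. It rose from d3 to d3ag6 by 0.55 (SE 0.14, adjusted p = 0.0405), and by the same amount without the EA0842 arrays (adjusted p = 0.029). That call was lost when any 1 of the 4 arrays compared was left out (adjusted p 0.115 to 0.174) and in 6 of 13 other settings. A second Sdhc probe set read 8.65 and 9.66 in d3 and 9.68 and 9.31 in d3ag6, values that overlap, so the 2 probe sets disagree. Sdhd, the other anchor, read 10.27 to 11.30, with both EA0842 arrays at the top (11.30 and 11.08).

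Among the core subunits of complex I, Ndufs1, the largest iron-sulfur subunit, varied most over the EA1013 groups, from 10.30 and 10.82 in d6 female to 11.12 and 11.37 in d3ag6 (0.69, SE 0.26, adjusted p = 0.163). None of the 6 nuclear core subunits on the array was called in any of the 8 comparisons, also without the EA0842 arrays. In complex III, Uqcrc2, a core protein, read 11.25 and 11.25 in d3 and 11.69 and 11.82 in E12.5; its difference of -0.40 between d3ag6 and E12.5 was not called (SE 0.21, adjusted p = 0.291). Uqcrc1, the other core protein, read 12.15 to 12.50. In complex V, Atp5pb, the peripheral stalk subunit b, read 12.41 and 12.32 in d3 and 12.82 and 12.78 in E12.5 (F test adjusted p = 0.0976). Atp5mpl, a small membrane subunit, read 7.88 to 8.88, both ends in d6 groups.

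Each comparison called few of the 76 tested members. From d3 to d6 female, which follows 3 days of culture, 0 were called against 4.06% of all genes (5.09% without the EA0842 arrays, where 0 members were called too); limma gave 0 members an unadjusted p under 0.05 over all arrays and 4 without EA0842. From d3 to d3ag6, 2 were called against 10.6% of all genes, and 3 against 13.5% without EA0842. From d6 female to d3ag6, 1 was called against 6.39%, and 1 against 9.24% without EA0842. Between d3ag6 and E12.5, 1 was called against 9.03%, and 3 against 11.6% without EA0842. The members' median difference in these 4 comparisons was 0.10, 0.10, 0.01 and -0.05, with -0.01, 0, 0.01 and 0 over all genes. The comparisons share groups, so these counts are not independent of each other. The d3ag6 cells came from day 3 cells and did not pass through d6 female culture, so that pair is not a time course.

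The 3 comparisons that cross array codes cannot separate the code from the group. Wherever PGCLCs are compared with PGCs, background and sorting reporter also differ with the group and cannot be told apart from it. This holds for d3ag6 minus E12.5 and d6 male minus E9.5 too, and the sex of the E9.5 cells is unknown. Between d6 female and E9.5, 1 member was called against 13.9% of all genes (1 against 12.7% without EA0842). Between d6 female and d6 male, 0 were called against 1.47% of all genes, with an unadjusted p under 0.05 in 6 members; without EA0842, 0 were called against 0.357%, with 2 such members. Between E12.5 and E9.5, 2 were called against 23.6%, and 1 against 23.3% without EA0842. The members' median difference was 0.20, 0.34 and 0.28 in these 3 comparisons over all arrays, and 0, 0 and 0.09 without the EA0842 arrays, so most of each median came with those 2 arrays. With only the EA0842 array left for d6 male (without d6 male replicate 1), d6 female minus d6 male was 1.71 for Atp5e, the epsilon subunit of complex V. It was 2.70 for Cox7a1, and both values rest on 1 d6 male array. Beside the E9.5 comparisons, the 7 erythroid markers had a log2 summed signal of 12.79 to 13.97 in E9.5 and 6.74 to 8.46 elsewhere, and the 9 mesenchyme markers 10.64 to 11.77 in E9.5 and 8.22 to 10.36 elsewhere, with no marker at 0. The 8 endothelium markers summed to 9.96 to 10.57 in E9.5, 11.35 to 11.55 in d6 male and 9.92 to 10.88 in d6 female, also with none at 0; 4 of the 8 were called higher in d6 male than in E9.5 and 2 of the 8 in d6 female than in E9.5, and 0 in either without the EA0842 arrays. The part of these markers in the results, the Cox6b2 differences from E9.5 included, was not tested.

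Between d6 male and E9.5, the pair of groups that share both codes, 0 members were called against 10.6% of all genes, and 0 had an unadjusted p under 0.05. With the code as a block 1 was called, Cox6b2, against 14.9% of all genes, and 9 had an unadjusted p under 0.05. Without the EA0842 arrays 1 was called, again Cox6b2 (0.93, SE 0.18, adjusted p = 0.0369), against 5.41% of all genes.

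**Figure D4:**
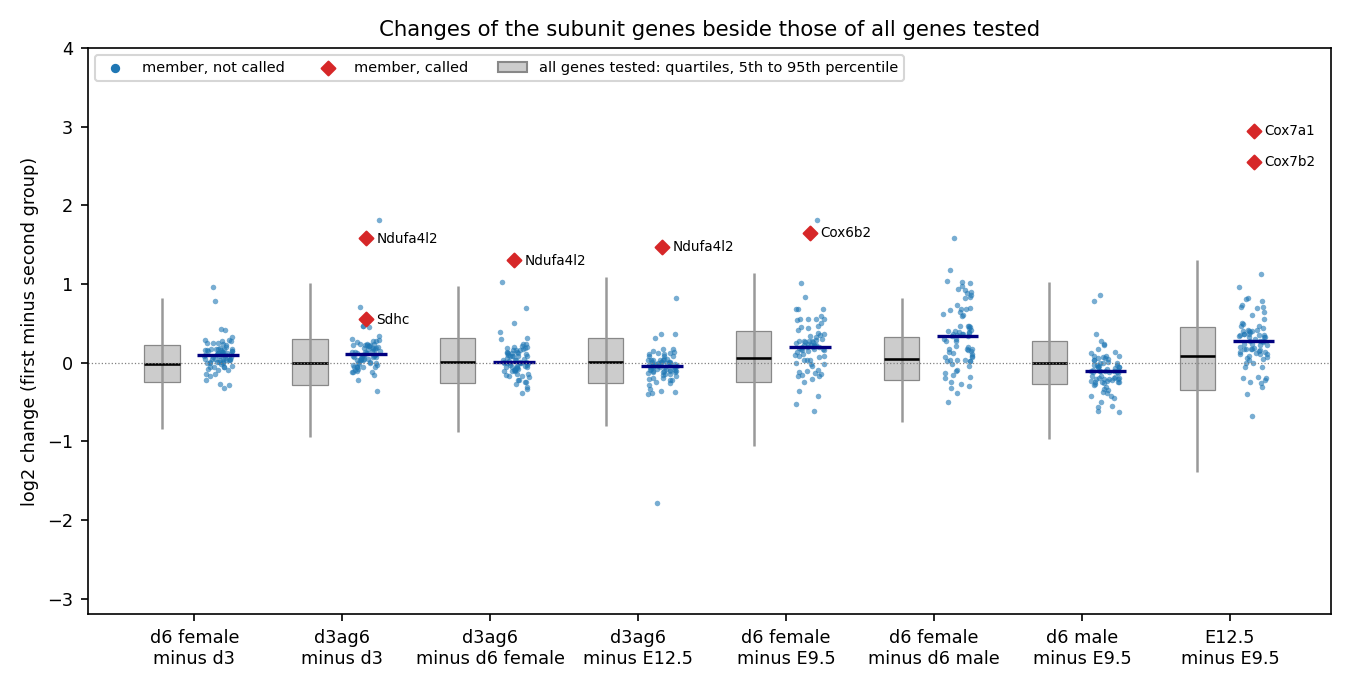
Log2 change in each of the 8 comparisons: blue points are the 76 tested members with their median as a dark bar, red diamonds the called members, and the grey box and line beside them the quartiles and the 5th to 95th percentile of all 13436 genes tested. Most members lie within the spread of all genes, and the called members are Ndufa4l2, Sdhc, Cox6b2, Cox7a1 and Cox7b2.

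A missing call does not show equal levels, so the intervals were read as well. The 95% interval of the change lay within 2-fold in either direction for 61 of 76 members (80.3%) from d3 to d6 female and 58 (76.3%) from d3 to d3ag6. It did so for 60 (78.9%) between d6 female and d3ag6 and 58 (76.3%) between d3ag6 and E12.5, against 65.7%, 60.0%, 60.8% and 60.5% of all genes in these comparisons. Without the EA0842 arrays it did so for 71, 73, 72 and 73 members, and the members' median SE fell from 0.25 to 0.13.

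Genes that work with the respiratory chain were read from lists chosen for this description. Among cytochrome c and the ADP/ATP carriers, the germ cell forms moved and the common forms did not pass the test. Slc25a31, the ADP/ATP carrier of germ cells, read 6.26 and 5.58 in d3, 8 and 7.34 in d6 female, 10.37 and 10.24 in d3ag6, 11.28 and 11.30 in E12.5, 7.24 and 7.28 in E9.5, and 8.05 and 8.02 in d6 male. It rose from d3 to d6 female by 1.75 (SE 0.26, adjusted p = 0.0088) and from d3 to d3ag6 by 4.38 (SE 0.26, adjusted p = 6.31e-05). From E9.5 to E12.5 it rose by 4.03 (SE 0.26, adjusted p = 4.8e-05). It was higher in d3ag6 than in d6 female by 2.64 (SE 0.26, adjusted p = 0.00122), groups that also differ in time after day 3. It was lower in d3ag6 than in E12.5, at -0.99 (SE 0.26, adjusted p = 0.0479), a call lost without the EA0842 arrays and when any 1 of the 4 arrays in that comparison was left out; the rise from d3 to d6 female was not called without d6 female replicate 1. Cyct, the testis-type cytochrome c, read 9.45 and 9.08 in d3, 9.15 and 8.55 in d6 female, 10.53 and 10.89 in d3ag6, 10.95 and 10.91 in E12.5, 8.37 and 7.57 in E9.5, and 9.74 and 8.95 in d6 male. It rose from d3 to d3ag6 by 1.44 (SE 0.35, adjusted p = 0.0319) and from E9.5 to E12.5 by 2.97 (SE 0.35, adjusted p = 0.00068). It was higher in d3ag6 than in d6 female by 1.86 (SE 0.35, adjusted p = 0.0186). Cyct was also higher in d6 male than in E9.5 by 1.38 (SE 0.35, adjusted p = 0.0375). This last call was lost without the EA0842 arrays, and without E9.5 replicate 2 or d6 male replicate 1. Cyct kept neither of its d3ag6 calls when any 1 of the 4 arrays compared was left out. The common forms Cycs (12.75 to 13.28), Slc25a4 (12.71 to 13.27) and Slc25a5 (12.46 to 12.98) were called in none of the 8 comparisons.

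Assembly factors gave scattered calls, which stand beside the share of all genes called. That share was 4.06% in d6 female minus d3, 10.6% in d3ag6 minus d3 and 9.03% in d3ag6 minus E12.5. It was 13.9% in d6 female minus E9.5, 10.6% in d6 male minus E9.5 and 23.6% in E12.5 minus E9.5. The lists in this paragraph were not tested against these shares. The 14 tested for complex I include Ndufab1, a subunit gene whose symbol lies outside the rule and which was not called. Of the 14, 1 fell from d3 to d3ag6 (Ndufaf3, -0.97, SE 0.25, adjusted p = 0.0392) and 2 were lower in d3ag6 than in E12.5 (Ndufaf1, -0.73, and Ndufaf4, -0.70). Ndufaf3 was also lower in E12.5 than in E9.5 (-0.95), and Ndufaf7 was higher in d6 male than in E9.5 (0.81). Of 16 for complex IV, 2 were higher in d3ag6 than in E12.5: Sco2, a copper chaperone (1.29, SE 0.22, adjusted p = 0.00926), and Coa5 (0.84). Between E12.5 and E9.5, Cox11 was higher (0.95) and Coa5 lower (-0.66) in E12.5. Ttc19, an assembly factor of complex III, was higher in E12.5 than in E9.5 (1.40, SE 0.22, adjusted p = 0.00275), and Sdhaf2, which inserts FAD into Sdha, was lower in d6 female than in E9.5 (-0.83, SE 0.20, adjusted p = 0.0274), as the called genes among 12 for complexes II, III and V. Of 7 tested regulators of respiratory genes, only Yy1 was called, lower in E12.5 than in E9.5 (-0.95, SE 0.17, adjusted p = 0.00444). Nrf1 (9.43 to 10.18), Gabpa (9.68 to 10.57) and Tfam (10.07 to 11.07), which regulate nuclear subunit genes and mitochondrial DNA, were not called, and Ppargc1a (2.57 to 3.81) was too dim to be tested. Of 10 genes that maintain or transcribe mitochondrial DNA, Polg, its polymerase, rose from d3 to d6 female (0.70, SE 0.15, adjusted p = 0.0355). Polg also rose from d3 to d3ag6 (0.58, SE 0.15, adjusted p = 0.0381). Tfb1m was lower in d6 female than in E9.5 (-1.17) and Tfb2m lower in E12.5 than in E9.5 (-0.82). Of 12 genes of the citric acid cycle, Cs, citrate synthase (0.95, SE 0.15), and Idh3g (0.78, SE 0.16) were higher in E12.5 than in E9.5, and Idh3a was higher in d6 male than in E9.5 (0.57, SE 0.15).
Many of these calls rested on single arrays. Without the EA0842 arrays those of Ndufaf7, Sdhaf2, Tfb1m, Tfb2m, Idh3a and Coa5 (E12.5 minus E9.5) were lost. The calls of Ndufaf1, Ndufaf4, Polg (both comparisons), Idh3a, Ndufaf3 (d3ag6 minus d3) and Coa5 (d3ag6 minus E12.5) each ended when any 1 of their 4 arrays was left out. In E12.5 minus E9.5, Ndufaf3, Coa5, Cox11, Tfb2m and Idh3g lost theirs without either E12.5 array, and also without E9.5 replicate 1 for Ndufaf3 and Idh3g or replicate 2 for the other three. Sdhaf2 was not called without either d6 female array or E9.5 replicate 2, Tfb1m without d6 female replicate 1 or E9.5 replicate 2, Ndufaf7 without either E9.5 array or d6 male replicate 2, and Sco2 without d3ag6 replicate 1 or E12.5 replicate 2. Ttc19, Yy1 and Cs kept their calls with each array left out and without EA0842. Coa5 had a change of 0.21 between E12.5 and E9.5, of the opposite sign, with the mean of all probe sets.

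Glycolysis genes gave more calls than the subunit genes in several comparisons. Of 18 tested, 9 were higher in d3ag6 than in E12.5 with 0 lower, where 9.03% of all genes were called. The median was 1.17, against -0.05 for the subunit genes and 0 for all genes. Among the 9 were Slc2a1, a glucose transporter (2.46, SE 0.22, adjusted p = 0.000393), and Tpi1, triosephosphate isomerase (2.27, SE 0.21, adjusted p = 0.000543). The 12 blood and macrophage markers summed to 10.85 to 11.17 in d3ag6 and 9.02 to 9.06 in E12.5, and their part in this was not tested. Between E12.5 and E9.5, 8 were lower and 1 was higher in E12.5 (median -0.56), and 7 lower and 1 higher without EA0842 (median -0.36), where the subunit genes had a median of 0.28 over all arrays and 0.09 without EA0842. Ldha, a lactate dehydrogenase, was among those lower (-2.67, SE 0.29, adjusted p = 0.000463). In E12.5 minus E9.5, 23.6% of all genes were called over all arrays. Between d6 female and d6 male, which differ in array code too, 5 glycolysis genes were higher in d6 female with 0 lower, against 1.47% of all genes. Between d6 male and E9.5, 6 were lower and 2 higher in d6 male, against 10.6% of all genes. Without the EA0842 arrays, d6 male has 1 array, and fewer glycolysis genes were called in both of these comparisons. A smaller share of all genes was called there too. The glycolysis median in d6 female minus d6 male was 0.7 over all arrays and 0.61 without EA0842. In d6 male minus E9.5 it was -0.23 and -0.3. From d3 to d6 female 0 glycolysis genes and 0 subunit genes were called. These lists were not tested against each other.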

How the data were processed

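Each array held the RNA of 1 sorted sample. The authors deposited 1 log2 value per probe set (45101) and array; array maxima of 13.76 to 13.93 and medians of 4.73 to 4.87 bear out the scale, while the log base, probe summarisation and normalization are not given in the sources used here. Groups and replicate numbers came from the titles. Values were quantile normalized with limma (version 3.58.1, R 4.3.3). The platform's annotation named 1 gene for 34958 probe sets, several for 932 and none for 9211; probe sets with 1 gene were used, and all 79 members matched RefSeq by gene ID. Genes with at least 2 arrays above the median were tested in 1 fit with a mean per group (6 residual degrees of freedom), eBayes, two-sided tests and Benjamini-Hochberg adjustment over all genes tested. Simulated data were used to check these steps. Amplification from 5 ng of RNA with 12 initial cycles can widen the spread of dim genes.

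The members and lists were chosen with earlier results of these data known. Genes named were all isoform families, complex II, called members, the 2 members of each complex with the lowest F test p and those with the highest and lowest mean, up to 3 called genes of other lists, and fixed partners. Called genes of the list of pyruvate dehydrogenase and the pyruvate carrier, and of the ribosome and marker lists, were not named. Cox7c and genes shown for the array code were chosen after their values were seen. Replicate numbers pair E9.5 with d6 male, since each number there is 1 array code (r = 0.55 between deviations from group means); in other pairs of groups r was -0.25 to 0.33. Alternatives were the values as deposited, centring on array medians, other filters, the mean of all probe sets, blocks for replicate number or array code, trend and robust eBayes, only the arrays compared, a 2-fold minimum, and leaving out each array or both EA0842 arrays.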

Additional observations from a re-analysis of the deposited data

How the results depend on the processing

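No called change of a member reversed in any setting; among called genes of the other lists, Coa5 in E12.5 minus E9.5 became 0.21 with the mean of all probe sets. Counts of called members moved by more than 1.5 times as follows. The cause was not tested, and filters and left-out arrays change the genes or samples fitted. The share of all genes called is given above for only some of these settings, so these counts alone are not results about the members. For d3ag6 minus d3 the count of 2 became 1 with the values as deposited, median centring, no filter, the 75th percentile filter, the mean of all probe sets, only the arrays compared, and a 2-fold minimum. For d3ag6 minus d6 female the count of 1 became 0 with no filter, the 75th percentile filter and only the arrays compared. For d3ag6 minus E12.5 the count of 1 became 0 with the 75th percentile filter, which left Ndufa4l2 out, 2 with the replicate block, 3 with the code block, 3 with only the arrays compared and 3 without the EA0842 arrays. For d6 female minus E9.5 the count of 1 became 2 with the values as deposited, 0 with no filter, 3 with the replicate block, 3 with trend and robust, and 0 with only the arrays compared. For E12.5 minus E9.5 the count of 2 became 4 with the replicate block, 4 with the code block, 5 with trend and robust, 1 with only the arrays compared and 1 without the EA0842 arrays. For the F test the count of 1 became 3 with the replicate block, 9 with the code block, 4 with trend and robust, 4 with only the arrays compared and 4 without the EA0842 arrays. For d6 male minus E9.5 the count of 0 became 1 with the code block and 1 without the EA0842 arrays.

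With each array left out in turn, counts ranged from 0 to 1 in the F test, in d6 male minus E9.5 and d6 female minus E9.5, and in d3ag6 against each of d3, d6 female and E12.5, from 0 to 2 in E12.5 minus E9.5, from 0 to 7 in d6 female minus d6 male, and stayed at 0 in d6 female minus d3. Each of these fits leaves 1 array in a group, and the share of all genes called in them is not given. The 2 EA0842 arrays set much of the members' error, and dim genes such as Ndufa4l2 have no detection call here.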

Other observations

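Several subunits were also measured by probe sets that name more than 1 gene, which no comparison used. The probe set shared by Ndufs6 and Ndufs6b read 11.33 to 12.54, the brighter of 2 shared by Ndufb4, Ndufb4b and Ndufb4c read 11.01 to 12.47, and the 1 shared by Ndufs5 and its pseudogene read 11.08 to 12.28. In each of these, the 2 EA0842 arrays held the lowest values: 11.91 and 11.33 for Ndufs6 in E9.5 and d6 male, 11.01 and 11.07 for Ndufb4, and 11.42 and 11.08 for Ndufs5. The Ndufb4 probe set that names 1 gene read 3.20 to 4.26, so the level of Ndufb4 rests on which probe set is read.

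The mitochondrial ribosome, another large nuclear set of mitochondrial proteins, had a smaller difference between the EA0842 and EA0831 arrays than the subunit genes: its median over 76 genes was -0.21 in E9.5 and -0.26 in d6 male. The cytosolic ribosome had -0.02 and -0.10 over 45 genes. These medians were not tested against each other.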
